A study of Mus musculus with 9 samples.

Results

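Aminoacyl-tRNA synthetases are the enzymes that join each amino acid to its own transfer RNA. They were taken here from the gene table of a mouse kidney RNA-seq study as every gene named by an amino acid letter followed by ars, with or without a final 1 or 2, together with Farsa, Farsb and Fars2, at a mean level of at least 0.5 FPKM (fragments per kilobase per M fragments) over the 9 libraries. All 36 genes with such names passed that level, of 34310 genes in the table and 15015 genes tested. The set holds 19 cytosolic enzymes or subunits and 17 mitochondrial enzymes, whose names end in ars2. Beyond that minimum the names chose the members, though the naming rule was set with earlier results of these data known.

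The kidneys came from 9 mice in 3 groups of 3: mice given LPS+Tβ4 (lipopolysaccharide, the endotoxin of Gram-negative bacteria, with thymosin β4, a peptide that binds actin monomers), mice given LPS alone, and mice given saline. The labels give no dose, time, route, strain, sex or age, and no genetic change. Polyadenylated RNA of whole kidney was sequenced from 1 mouse per library, at 53 to 62 M counts a library. Levels of 1 gene across libraries are counts per M counts (CPM) after TMM scaling, and levels of different genes are compared in FPKM. Changes are log2 fold changes ± SE from the quasi-likelihood test of edgeR, adjusted over all 15015 genes with a threshold of 0.05. All 10 proximal tubule and all 3 thick ascending limb markers were detected in every library. In whole tissue, fewer cells of a type and less RNA per cell cannot be told apart.

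The cytosolic synthetases charge transfer RNA for the ribosomes that translate nuclear messages, and some of them sit with Eprs and 3 scaffold proteins in the multisynthetase complex. The mitochondrial enzymes are also encoded in the nucleus, are imported into mitochondria, and serve the mitochondrial ribosomes that make core subunits of the respiratory chain, on which the proximal tubule depends. Gars and Kars each supply both compartments from a single gene. Uncharged transfer RNA activates the kinase GCN2, which starts the integrated stress response, and its transcription factor ATF4 binds CARE elements in the promoters of many cytosolic synthetase genes.

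The CARE core TGATGNAA, where N is any base, was searched on both strands of the RefSeq promoter windows, which run from 250 bases before to 50 bases after a start site in GRCm38.p6. RefSeq windows matched 26 of the 36 genes, 12 cytosolic and 14 mitochondrial. The core stood in 5 of 12 cytosolic windows (41.7%) and in 0 of 15 mitochondrial windows, against 3.97% of all 32851 promoter windows and 2.17% of the windows of tested genes. The 5 matched windows are shown because the core is what they share, from 120 bases before the start site through its first 30 bases, 5′ to 3′ along the gene, with the core in capitals. They lie at chr8:111033722-111033871 on the plus strand for Aars, chr6:55037881-55038030 on the plus strand for Gars, chr15:11399629-11399778 on the minus strand for Tars, chr13:49682010-49682159 on the plus strand for Iars and chr4:129189783-129189932 on the plus strand for Yars.
Aars: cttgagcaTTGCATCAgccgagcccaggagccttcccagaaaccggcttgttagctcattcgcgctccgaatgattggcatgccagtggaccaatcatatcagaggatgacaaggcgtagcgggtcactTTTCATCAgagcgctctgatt
Gars: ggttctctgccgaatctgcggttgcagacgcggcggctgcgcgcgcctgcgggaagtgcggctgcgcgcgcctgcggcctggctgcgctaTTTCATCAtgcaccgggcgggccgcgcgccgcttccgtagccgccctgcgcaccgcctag
Tars: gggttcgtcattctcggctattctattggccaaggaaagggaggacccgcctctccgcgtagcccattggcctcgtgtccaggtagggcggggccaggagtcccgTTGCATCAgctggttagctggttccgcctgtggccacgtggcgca
Iars: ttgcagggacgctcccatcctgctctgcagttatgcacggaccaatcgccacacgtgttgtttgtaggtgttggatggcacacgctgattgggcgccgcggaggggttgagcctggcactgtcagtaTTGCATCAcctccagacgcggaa
Yars: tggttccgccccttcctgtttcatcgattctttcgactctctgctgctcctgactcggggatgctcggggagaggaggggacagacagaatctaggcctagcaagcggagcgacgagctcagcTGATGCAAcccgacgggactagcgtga

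Counting the start site as 1, the core lay at -112 to -105 and again at 10 to 17 in Aars, at -30 to -23 in Gars, at -15 to -8 in Tars, at 8 to 15 in Iars and at 4 to 11 in Yars, where it reads along the gene. Of these genes Aars, Gars and Tars rose in LPS kidneys, and Iars and Yars did not pass the test (values below). Of the cytosolic genes with a window but no core, Farsa, Kars, Mars1 and Qars rose, Dars fell, and Farsb and Sars did not pass. Cars, Hars, Lars, Nars, Rars, Vars and Wars had no matched window. Across tested genes with a RefSeq window, 3.2% of those that rose in LPS kidneys held the core, 2.66% of those that fell and 2.4% of those that did not pass. A match is a description of the letters and not a bound site.

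Under saline, the cytosolic genes were mostly the more abundant. Of the 10 highest mean levels over the 3 saline kidneys, 7 were cytosolic, led by Nars (asparagine) at 23.1 ± 2.14 FPKM and Sars (serine) at 17.3 ± 2.12 FPKM (SD, n = 3). Lars2, the mitochondrial leucine enzyme, had the highest mean of all, 28.3 ± 15.9 FPKM, with an SD so wide that its place in the order is uncertain. Rars2 (arginine) at 12.2 ± 0.122 FPKM and Iars2 (isoleucine) at 11.1 ± 0.75 FPKM were the next mitochondrial genes. The lowest were Mars2 (methionine) at 1.24 ± 0.155 FPKM, Pars2 (proline) at 1.31 ± 0.092 FPKM and Ears2 (glutamate) at 1.69 ± 0.125 FPKM. Gars, Dars, Farsb, Hars and Kars lay between 13.2 and 15.5 FPKM, and each differed from the next of these 5 by less than the wider of their SDs. Kars lay above Rars2 by more than the SD of either gene.

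The comparison of LPS with saline asked how endotoxin changed the kidney transcriptome, and the synthetases of the separate compartments changed mostly in opposite directions. Gars and Kars, which supply both compartments, are counted as cytosolic in all counts, medians and sums. Of 19 cytosolic genes, 13 rose, 1 fell and 5 did not pass, with a median change of 0.56. Of 17 mitochondrial genes, 11 fell and 6 did not pass, with a median change of -0.62. In edgeR 0 mitochondrial genes rose, 1 was higher at an unadjusted p under 0.05, and 1 rose in DESeq2 and in limma, each time Pars2. Over all tested genes, 20.9% rose, 22.2% fell, and the median change was 0.02. Scaling by library totals alone, which moved the median of all genes to 0.17, called 3667 genes higher and 2586 lower, against 3144 higher and 3329 lower with TMM. Under that scaling the cytosolic median was 0.70 and the mitochondrial median -0.46, and 7 mitochondrial genes fell. With no filter on low genes, and in limma on FPKM, 7 mitochondrial genes fell as well. Without saline replicate 1 the mitochondrial count was 6, and without LPS replicate 2 it was 7.

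**Figure D1:**
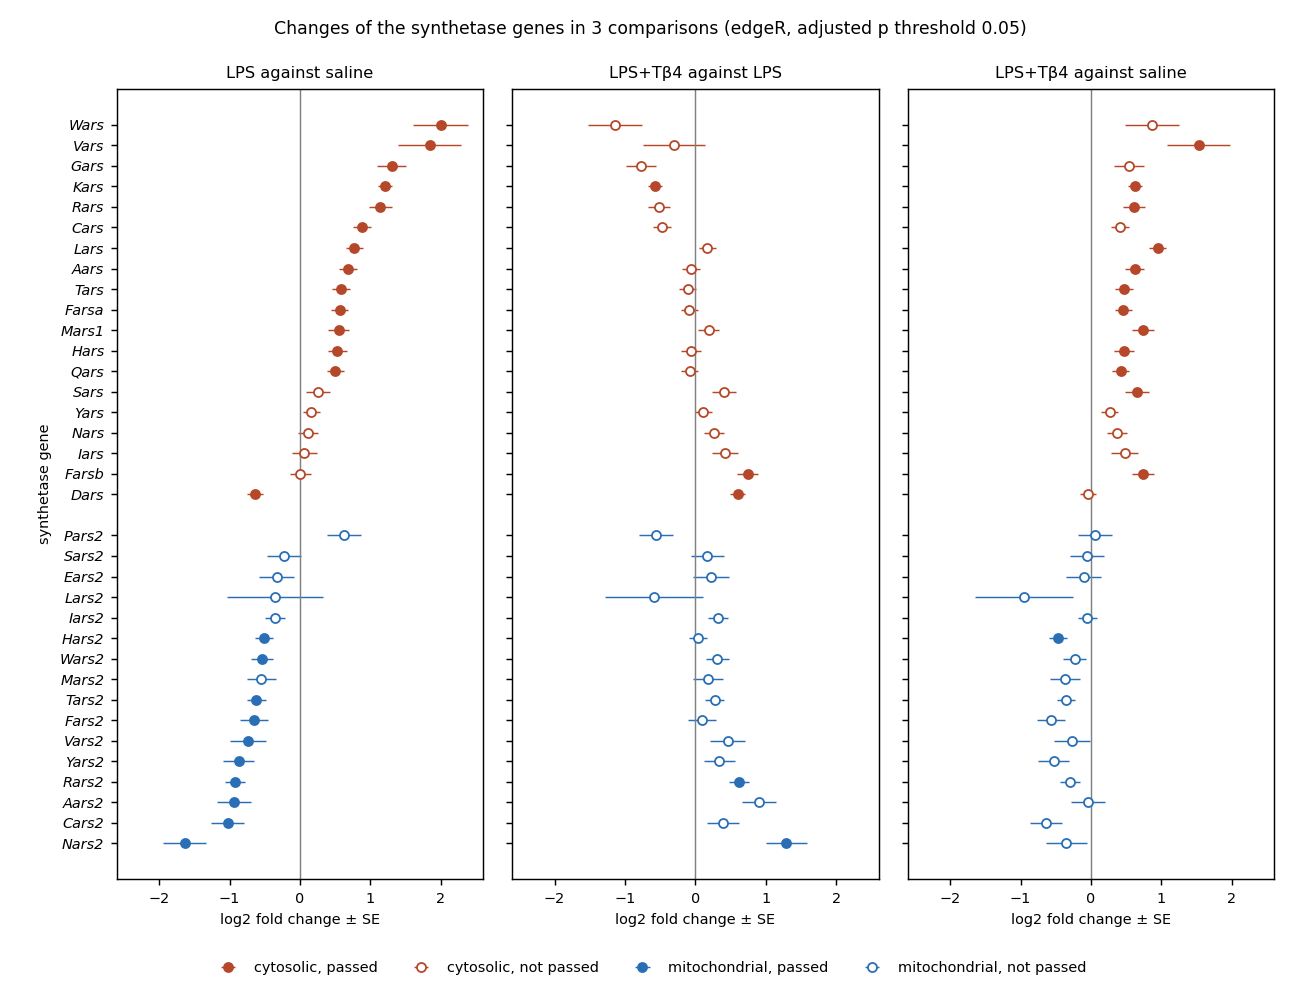
Log2 fold change ± SE (horizontal axis, edgeR) of the synthetase genes reported here (vertical axis, cytosolic genes above mitochondrial genes, ordered by the change in LPS against saline) in 3 comparisons. Filled points passed an adjusted p of 0.05 and open points did not. In LPS against saline the 13 cytosolic genes that rose lie to the right of 0 and the mitochondrial genes that fell lie to the left, with Dars the 1 filled cytosolic point on the left.

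Among the cytosolic genes, the multisynthetase complex members showed both directions, 5 higher and 1 lower of 7, beside 20.9% and 22.2% of all tested genes. Kars (ENSMUSG00000031948, GRCm38 chromosome 8, 111993443 to 112011275, minus strand), the lysine enzyme of both compartments, had 166, 169 and 159 CPM in LPS kidneys, against 70.9, 70.2 and 74.4 CPM in saline kidneys. All 3 LPS kidneys lay above all 3 saline kidneys, a change of 1.20 ± 0.10 or 2.29-fold (adjusted p = 9.0e-05). Rars, the arginine enzyme, had 69.1, 75.3 and 97.9 CPM in LPS kidneys, against 36.1, 36.2 and 38 CPM in saline kidneys (1.14 ± 0.16, adjusted p = 0.00084). Lars, the leucine enzyme and a reported leucine sensor for mTORC1 in human cells, had 49.8, 49.3 and 49.4 CPM in LPS kidneys, against 26.1, 28 and 32.7 CPM in saline kidneys (0.77 ± 0.12, adjusted p = 0.0012). Neither gene's groups overlapped. Mars1 (methionine) and Qars (glutamine) rose by 0.55 and 0.50. Iars (isoleucine) did not pass, with a change of 0.06 ± 0.18 (adjusted p = 0.82).

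Dars, the aspartate enzyme of the complex, was the 1 cytosolic gene that fell. Dars (ENSMUSG00000026356, chromosome 1, 128363707 to 128417359, minus strand) had 48.4, 52.8 and 56.1 CPM in LPS kidneys, against 83.3, 77.7 and 84.3 CPM in saline kidneys. The ranges did not overlap, and the change was -0.64 ± 0.11 (adjusted p = 0.0024). Its complex partner Eprs, the fused glutamate and proline enzyme, lies outside the naming rule and averaged 82.2 CPM in LPS kidneys and 86.4 CPM in saline kidneys, a change of -0.07 (adjusted p = 0.74). Of the 3 scaffold proteins, Aimp1 rose by 0.61 (adjusted p = 0.0064) and Aimp2 by 0.67 (adjusted p = 0.044, a call that ended under 11 of 21 alternatives), and Eef1e1 had a change of -0.36 (adjusted p = 0.22). The complex and its scaffold thus held transcripts that rose, fell and did not pass.

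Outside the complex, 8 of 12 cytosolic genes rose, beside 20.9% of all tested genes, and 4 did not pass. Of the structural classes of synthetases, 7 of 9 cytosolic class I and 6 of 10 class II genes rose. The classes were not tested against each other. Gars, the glycine enzyme of both compartments, had 108, 142 and 184 CPM in LPS kidneys, against 52.2, 67.1 and 56.5 CPM in saline kidneys (1.30 ± 0.21, adjusted p = 0.0017). Cars, the cysteine enzyme, had 30.9, 32.9 and 32.7 CPM in LPS kidneys, against 16.6, 19 and 16.8 CPM in saline kidneys (0.88 ± 0.13, adjusted p = 0.0012). Aars, the alanine enzyme, had 170, 131 and 164 CPM in LPS kidneys, against 97.2, 94.4 and 97.9 CPM in saline kidneys (0.68 ± 0.13, adjusted p = 0.0031). In each of these genes the lowest LPS kidney lay above the highest saline kidney. Tars (threonine), Farsa (the catalytic subunit for phenylalanine) and Hars (histidine) rose by 0.58, 0.56 and 0.53. Farsb, the other phenylalanine subunit, had a change of 0.00 ± 0.15 (adjusted p = 1), so the subunits of that enzyme did not both pass. Sars, Yars (tyrosine) and Nars had changes of 0.25, 0.16 and 0.11 and did not pass.

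Wars, the tryptophan enzyme, whose gene is induced by interferon γ in human cells, had the largest cytosolic change and a wide spread. Wars (ENSMUSG00000021266, chromosome 12, 108860030 to 108894174, minus strand) had 195, 216 and 90.6 CPM in LPS kidneys, against 37.4, 42.9 and 45 CPM in saline kidneys. The lowest LPS kidney still lay above the highest saline kidney, and the change was 2.00 ± 0.39 (adjusted p = 0.004). Vars, the valine enzyme, described in full after its values were seen, had 203, 89 and 60.4 CPM in LPS kidneys, against 24.8, 38.2 and 35.6 CPM in saline kidneys (1.84 ± 0.45, adjusted p = 0.012). Both genes were higher in LPS replicates 1 and 2 than in replicate 3. The summed level of 5 urothelial marker genes was 54.8, 45.9 and 0.924 CPM in the same LPS libraries and 2.12, 86.5 and 74.1 CPM in the saline libraries. The part of urothelial tissue in the Wars and Vars values was not tested.

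**Figure D2:**
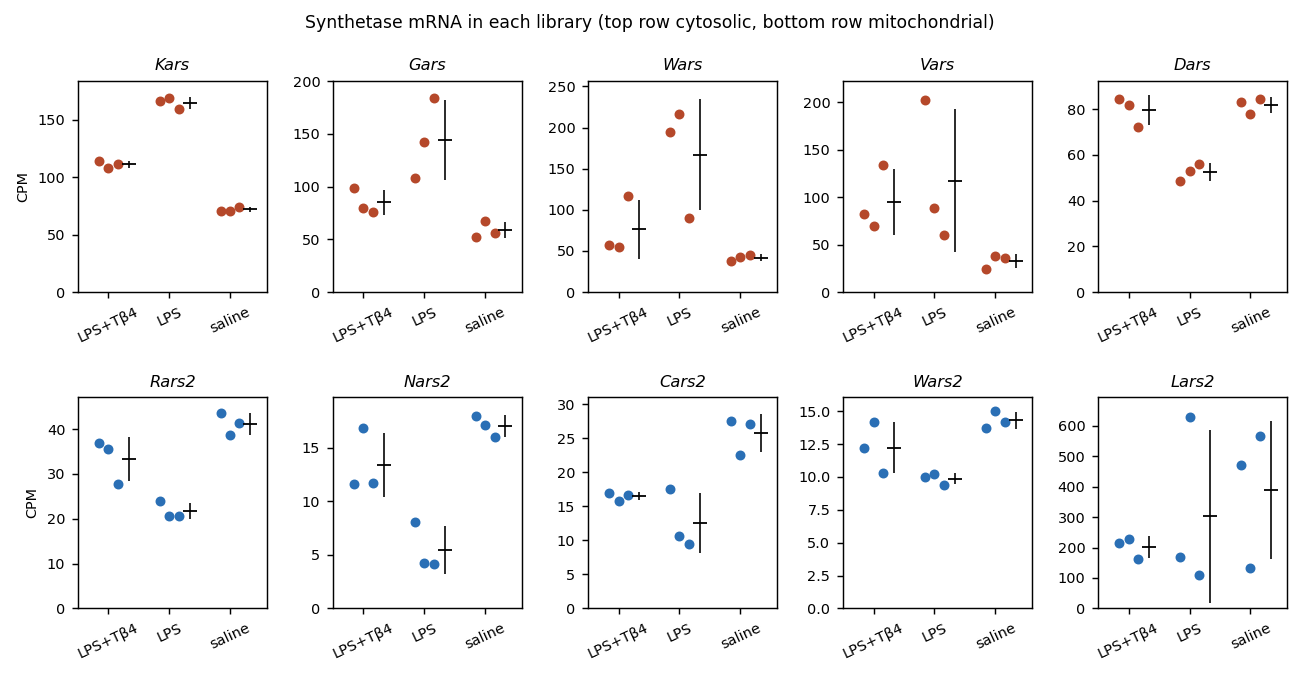
Level in CPM (vertical axis, from 0) of 5 cytosolic genes (top row) and 5 mitochondrial genes (bottom row) in each library of the LPS+Tβ4, LPS and saline groups. Points are single mice, the black bar is the mean ± SD (n = 3), and the Lars2 points span 111 to 630 CPM within the LPS group.

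The mitochondrial enzymes were lower in LPS kidneys across most amino acids. Nars2, the asparagine enzyme, changed most: Nars2 (ENSMUSG00000018995, chromosome 7, 96951505 to 97064758, plus strand) had 8.04, 4.27 and 4.11 CPM in LPS kidneys, against 18, 17.1 and 16 CPM in saline kidneys (-1.64 ± 0.30, 0.322-fold, adjusted p = 0.0028). Rars2, the arginine enzyme (ENSMUSG00000028292, chromosome 4, 34614957 to 34660167, plus strand), had 23.9, 20.6 and 20.7 CPM in LPS kidneys, against 43.5, 38.6 and 41.4 CPM in saline kidneys (-0.92 ± 0.14, adjusted p = 0.0014). For both genes every LPS kidney lay below every saline kidney.

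Cars2, the cysteine enzyme, had 17.6, 10.6 and 9.42 CPM in LPS kidneys, against 27.5, 22.5 and 27.1 CPM in saline kidneys (-1.03 ± 0.24, adjusted p = 0.0082). Aars2, the alanine enzyme, had 10.8, 9.94 and 5.84 CPM in LPS kidneys, against 18.9, 15.3 and 16.8 CPM in saline kidneys (-0.94 ± 0.24, adjusted p = 0.014). Yars2, the tyrosine enzyme, had 9.51, 8.49 and 11.1 CPM in LPS kidneys, against 20.6, 16.4 and 16.1 CPM in saline kidneys (-0.87 ± 0.22, adjusted p = 0.013). No LPS kidney reached a saline kidney in these 3 genes. Tars2, the threonine enzyme, had 24.3, 21.6 and 18.3 CPM in LPS kidneys, against 32.1, 32 and 34.3 CPM in saline kidneys (-0.62 ± 0.13, adjusted p = 0.0065). Hars2, the histidine enzyme, had 28.2, 27.2 and 24.6 CPM in LPS kidneys, against 38.7, 36.9 and 38.4 CPM in saline kidneys (-0.51 ± 0.13, adjusted p = 0.011). These groups did not overlap either.

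Wars2, the tryptophan enzyme of mitochondria, had 10, 10.2 and 9.39 CPM in LPS kidneys, against 13.7, 15 and 14.2 CPM in saline kidneys (-0.54 ± 0.16, adjusted p = 0.029), and so moved opposite to Wars. Vars2 (valine) and Fars2 (phenylalanine) fell by 0.74 and 0.66 on the log2 scale. The calls of Vars2 and Wars2 were the least stable, with an adjusted p of up to 0.17 for Vars2 and up to 0.16 for Wars2 over 20 alternatives each, 16 and 11 of which ended the call. The Fars2 call ended under 6 of 20, among them the fits without saline replicate 1 or 3 or LPS replicate 1 or 2 (adjusted p up to 0.088). The Hars2 call ended under 4 of 21 and the Tars2 call under 3 of 20, both limma fits and library totals among them. The adjusted p reached 0.1 for Hars2 and 0.083 for Tars2. The Yars2 call ended without saline replicate 1 (adjusted p = 0.062) or LPS replicate 2 (0.052), and the Aars2 call without saline replicate 1 (0.056). Mars2, Iars2, Ears2 and Sars2 had changes of -0.55, -0.36, -0.33 and -0.23 and did not pass. Pars2, the proline enzyme, was the 1 mitochondrial gene with a positive change, 0.62 ± 0.24 (adjusted p = 0.069), with 9.43, 6.24 and 7.09 CPM in LPS kidneys against 4.86, 4.84 and 5.13 CPM in saline kidneys. Its adjusted p ranged between 0.024 and 0.16 over the alternatives. Pars2 was picked out after its values were seen.

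Lars2 stood apart by its spread, and its values are given because they weigh on every mitochondrial sum. It had 169, 630 and 111 CPM in LPS kidneys, against 471, 133 and 566 CPM in saline kidneys, and the groups overlapped (-0.36 ± 0.68, adjusted p = 0.7). High and low libraries stood in both groups. In GENCODE M21 transcripts, 72 bases of Lars2 match the RNA Gm15564 at 98.6% identity, and Gm15564 itself averaged 0.0108 FPKM.

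Set side by side for the same amino acid, the cytosolic transcript gained on its mitochondrial partner throughout. There were 16 such pairs over 15 amino acids, phenylalanine counting once for each subunit. The ratio of cytosolic to mitochondrial FPKM was higher in LPS than in saline kidneys in 16 of 16 pairs, with a median log2 difference of 1.22 and a range of 0.40 to 2.48. The groups did not overlap in 14 of 16 pairs, the exceptions being Lars/Lars2 and Sars/Sars2. Separated ranges were not counted over other gene pairs, so how unusual that count is cannot be told. The smallest p that an exact permutation test of 3 against 3 can give is 0.1, so no pair can pass. The pairs share the libraries and are not independent of one another or of the changes above.

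The largest pair differences were those of valine and tryptophan. Vars/Vars2 was 9.89, 7.04 and 6.21 in LPS kidneys, against 1.09, 1.47 and 1.54 in saline kidneys (log2 difference 2.48). Wars/Wars2 was 33.6, 36.8 and 16.7 in LPS kidneys, against 4.72, 4.93 and 5.46 in saline kidneys (2.45). Rars/Rars2 was 2.49, 3.15 and 4.06 in LPS kidneys, against 0.712, 0.804 and 0.789 in saline kidneys (2.05). For arginine the mitochondrial transcript was thus the more abundant of the pair under saline and the less abundant under LPS, per length. The same turn was seen for cysteine, with Cars/Cars2 at 1.93, 3.43 and 3.85 in LPS kidneys, against 0.66, 0.929 and 0.68 in saline kidneys. The smallest difference was that of Iars/Iars2 (0.40).

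**Figure D3:**
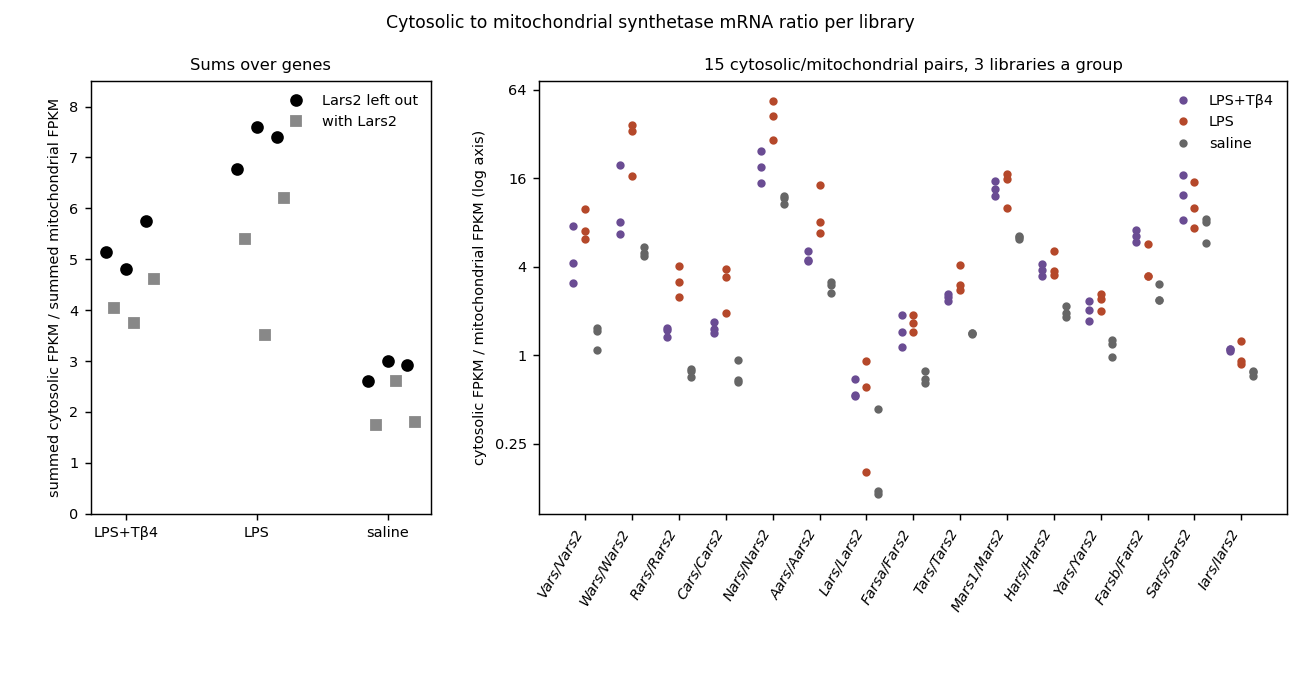
Left, summed cytosolic FPKM over summed mitochondrial FPKM (vertical axis, from 0) in each library of the LPS+Tβ4, LPS and saline groups, with Lars2 left out of the sum (circles) and with it (squares). Right, the same ratio for 15 cytosolic and mitochondrial gene pairs on a log axis, with 3 libraries a group. Without Lars2 the summed ratio lies at 4.8 to 5.76 in LPS+Tβ4 libraries, 6.78 to 7.6 in LPS libraries and 2.6 to 3 in saline libraries.

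Summed over genes and without Lars2, cytosolic over mitochondrial FPKM was 6.78, 7.6 and 7.4 in LPS kidneys, against 2.6, 3 and 2.92 in saline kidneys. With Lars2 the ratio was 5.4, 3.52 and 6.2 in LPS kidneys, against 1.74, 2.61 and 1.81 in saline kidneys. The groups were separate in both sums. In CPM with Lars2 they overlapped, at 3.64, 1.79 and 4.11 in LPS kidneys, against 1.08, 1.87 and 1.07 in saline kidneys, and LPS replicate 2, the highest in Lars2, lay below saline replicate 2. In CPM without Lars2 they were separate, at 5.51 to 6.01 in LPS kidneys and 2.17 to 2.44 in saline kidneys. The cytosolic sum was 418, 325 and 323 FPKM in LPS kidneys and 172, 212 and 199 FPKM in saline kidneys. The mitochondrial sum without Lars2 was 61.7, 42.8 and 43.6 FPKM in LPS kidneys and 66.4, 70.5 and 68.2 FPKM in saline kidneys. These FPKM sums are not TMM-scaled. In TMM-scaled CPM the cytosolic sum was 1800, 1600 and 1660 in LPS kidneys and 1000, 1070 and 1100 in saline kidneys. The mitochondrial sum without Lars2 was then 327, 267 and 293 CPM in LPS kidneys and 463, 436 and 460 CPM in saline kidneys. Proximal tubule markers were lower in LPS kidneys too. The sum of 10 of them was 6010, 14800 and 22200 CPM in LPS kidneys and 34200, 32400 and 33900 CPM in saline kidneys, and 6 of the 10 fell. Of 3 thick ascending limb markers 2 fell, with a median change of -2.03, and their sum overlapped between groups, at 2840, 439 and 1450 CPM in LPS kidneys and 2430, 3640 and 2270 CPM in saline kidneys. Slc12a1, the salt transporter of that segment, had 45.7, 18.6 and 12.5 CPM in LPS kidneys and 641, 1040 and 510 CPM in saline kidneys. LPS replicate 1 had the lowest proximal tubule sum of the LPS kidneys and the highest mitochondrial synthetase sum without Lars2, while with Lars2 replicate 2 was highest. Neutrophil markers, 6 genes, summed to 17.9, 38.6 and 30 CPM in LPS kidneys and 1.75, 0.57 and 2.33 CPM in saline kidneys. The part of a changed cell make-up in the synthetase result was not tested.

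Thymosin β4 was given to ask whether it lessens the response to endotoxin, and few synthetases differed between LPS+Tβ4 and LPS kidneys. Of 19 cytosolic genes, 2 were higher and 1 lower in LPS+Tβ4 kidneys, with a median change of -0.06. Of 17 mitochondrial genes, 2 were higher and 15 did not pass, with a median of 0.31. Over all tested genes 4.5% were higher and 2.33% lower, with a median of -0.01. At an unadjusted p under 0.05 edgeR had 1 mitochondrial gene lower, Pars2, while DESeq2 and limma had 0. All 5 calls ended when the 6 libraries compared were fitted without the saline group, a fit that called 3 of the 15015 genes higher. All 5 also ended without LPS replicate 2, without LPS+Tβ4 replicate 1 and without LPS+Tβ4 replicate 2. With no filter on low genes Kars alone passed. Without saline replicate 3 Kars alone passed, and without saline replicate 1, saline replicate 2 or LPS replicate 3 Kars and Dars alone passed. Without LPS+Tβ4 replicate 3 Nars2 did not pass and 2 cytosolic genes were lower. Without LPS replicate 1, 6 mitochondrial genes were higher and 4 cytosolic genes lower. The neural marker sum of 6 genes was 438, 529 and 538 CPM in LPS+Tβ4 kidneys and 177, 110 and 26.5 CPM in LPS kidneys, with 5 of 6 genes higher. The erythroid sum of 5 genes was 261, 181 and 190 CPM in LPS+Tβ4 kidneys and 550, 533 and 703 CPM in LPS kidneys, with 5 of 5 genes lower. Those 10 marker calls ended as well in the fit of 6 libraries. Of 10 proximal tubule markers 0 passed, with a median change of -0.30, 4 changes being positive and 6 negative. The part of these markers in the synthetase calls was not tested.

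Kars was lower in LPS+Tβ4 kidneys, at 114, 108 and 111 CPM, against 166, 169 and 159 CPM in LPS kidneys (-0.57 ± 0.10, adjusted p = 0.019). Its groups did not overlap, and LPS+Tβ4 kidneys were also all above saline kidneys (0.62 ± 0.10, adjusted p = 0.0029). Dars, which fell with LPS, was higher at 84.6, 81.7 and 72.3 CPM in LPS+Tβ4 kidneys, against 48.4, 52.8 and 56.1 CPM in LPS kidneys (0.60 ± 0.11, adjusted p = 0.024). Its change in LPS+Tβ4 against saline was -0.04 ± 0.11 (adjusted p = 0.83). Farsb had 83.5, 84.3 and 65.4 CPM in LPS+Tβ4 kidneys, against 52.8, 39.5 and 47.6 CPM in LPS kidneys (0.74 ± 0.15, adjusted p = 0.032). Unlike the others, Farsb had not passed in LPS against saline, so its LPS+Tβ4 kidneys lay above both other groups. The comparisons with LPS share the LPS libraries, so a gene's change in one bears on its change in the other.

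Of the mitochondrial genes, Nars2 had 11.6, 16.9 and 11.7 CPM in LPS+Tβ4 kidneys, against 8.04, 4.27 and 4.11 CPM in LPS kidneys (1.29 ± 0.29, adjusted p = 0.04). Rars2 had 36.8, 35.5 and 27.8 CPM in LPS+Tβ4 kidneys, against 23.9, 20.6 and 20.7 CPM in LPS kidneys (0.62 ± 0.14, adjusted p = 0.042). The groups did not overlap in either gene. Aars2 missed the threshold with a change of 0.90 ± 0.24 (adjusted p = 0.063), with 17, 18.4 and 14.2 CPM in LPS+Tβ4 kidneys against 10.8, 9.94 and 5.84 CPM in LPS kidneys. Gars, Rars and Cars had changes of -0.77, -0.52 and -0.48 (adjusted p = 0.063, 0.081 and 0.068). Wars had 56.8, 54.5 and 117 CPM in LPS+Tβ4 kidneys, against 195, 216 and 90.6 CPM in LPS kidneys (-1.14 ± 0.38, adjusted p = 0.11). The groups overlapped, since LPS+Tβ4 replicate 3 lay above LPS replicate 3. Wars also did not pass in 18 of 21 alternatives, with an adjusted p of up to 0.33. Without LPS+Tβ4 replicate 3 the change was -1.62 (adjusted p = 0.038). The urothelial marker sum of LPS+Tβ4 replicate 3 was 65.5 CPM, against 1.03 and 0.754 CPM in the other LPS+Tβ4 libraries. In LPS replicates 1, 2 and 3 that sum was 54.8, 45.9 and 0.924 CPM. Leaving out LPS+Tβ4 replicate 3 thus sets libraries low in urothelial markers against LPS libraries of which replicates 1 and 2 are high. The part of urothelial tissue in the Wars change was not tested. Vars had 81.8, 69.2 and 134 CPM in LPS+Tβ4 kidneys, with replicate 3 highest there too, and did not pass (-0.30 ± 0.44, adjusted p = 0.72).

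The pair ratios fell on both sides in this comparison, 5 higher and 11 lower in LPS+Tβ4 than in LPS kidneys, with a median log2 difference of -0.18. The ranges were separate and lower in 5 pairs, Aars/Aars2, Cars/Cars2, Nars/Nars2, Rars/Rars2 and Tars/Tars2, and separate and higher in 1, Farsb/Fars2. Rars/Rars2 was 1.49, 1.34 and 1.53 in LPS+Tβ4 kidneys, against 2.49, 3.15 and 4.06 in LPS kidneys. Nars/Nars2 was 24.7, 14.9 and 19.1 in LPS+Tβ4 kidneys, against 29, 42.6 and 53.8 in LPS kidneys. Each of these separated pairs had the smallest exact permutation p of 0.1, and other gene pairs were not counted here either. The summed ratio without Lars2 was 5.15, 4.8 and 5.76 in LPS+Tβ4 kidneys, below the LPS kidneys and above the saline kidneys given above. With Lars2 it was 4.05, 3.74 and 4.62 in LPS+Tβ4 kidneys, against 5.4, 3.52 and 6.2 in LPS kidneys, and these groups overlapped, since LPS replicate 2 lay below every LPS+Tβ4 kidney.

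Against saline, 12 of 19 cytosolic genes were higher in LPS+Tβ4 kidneys and 7 did not pass, with a median of 0.54. Of 17 mitochondrial genes 2 were lower and 15 did not pass, with a median of -0.35. Over all tested genes 12.3% were higher and 11.8% lower, with a median of 0.00. Scaling by library totals alone moved that median to 0.20, with 2568 genes higher and 1166 lower against 1852 and 1765 with TMM, and with cytosolic and mitochondrial medians of 0.73 and -0.15. Among the mitochondrial genes, Hars2 was lower, with 26.8, 31 and 24.6 CPM in LPS+Tβ4 kidneys, against 38.7, 36.9 and 38.4 CPM in saline kidneys (-0.47 ± 0.13, adjusted p = 0.028). The ranges were separate, and the Hars2 call ended without saline replicate 1, 2 or 3 and without LPS+Tβ4 replicate 1 or 3. Cell type markers differed in the same comparison. The proximal tubule sum was 14900, 14100 and 5910 CPM in LPS+Tβ4 kidneys and 34200, 32400 and 33900 CPM in saline kidneys, with 6 of 10 genes lower. All 6 neural markers were higher, with sums of 438, 529 and 538 CPM in LPS+Tβ4 kidneys and 60.3, 57.7 and 52.5 CPM in saline kidneys, and all 5 erythroid markers were lower, with sums of 261, 181 and 190 CPM in LPS+Tβ4 kidneys and 689, 652 and 544 CPM in saline kidneys. Their part in the synthetase changes was not tested.

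Among the cytosolic genes, Lars had 54.8, 59.2 and 53.6 CPM in LPS+Tβ4 kidneys, against 26.1, 28 and 32.7 CPM in saline kidneys (0.95 ± 0.12, adjusted p = 0.0012). Vars, Mars1, Farsb and Sars rose by 1.53, 0.74, 0.74 and 0.66. Wars, Gars, Cars and Iars did not pass, with changes of 0.87, 0.54, 0.41 and 0.48. The cytosolic count was 5 without saline replicate 1, without saline replicate 2 or without LPS+Tβ4 replicate 1, 6 without saline replicate 3 and 7 without LPS+Tβ4 replicate 2. The pair ratio was higher in LPS+Tβ4 than in saline kidneys in 16 of 16 pairs, by 0.53 to 1.78 on the log2 scale.

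Genes that work with the synthetases were read from lists chosen for their function, with earlier results of these data known. Over all tested genes, 20.9% rose and 22.2% fell in LPS kidneys. All 11 mitochondrial translation factors fell in LPS kidneys, with a median change of -1.08. Gfm2, a mitochondrial ribosome recycling factor, averaged 26.2 CPM in LPS kidneys and 86.8 CPM in saline kidneys (-1.73, adjusted p = 4.3e-05). Tufm, the mitochondrial elongation factor that delivers charged transfer RNA, averaged 51.5 CPM in LPS kidneys and 127 CPM in saline kidneys (-1.31, adjusted p = 0.00026). Guf1 and Gfm1, both mitochondrial translation GTPases, fell by 1.10 and 1.22. In LPS+Tβ4 against LPS, 2 of the 11 were higher: Gfm2 (0.70, adjusted p = 0.016) and Tsfm, the exchange factor of Tufm (0.88, adjusted p = 0.023), beside 4.5% of all tested genes. Both calls ended with only the 6 libraries compared and without LPS replicate 2 or LPS+Tβ4 replicate 2, and Tsfm also without LPS+Tβ4 replicate 1.

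In the cytosol, 1 of 8 elongation factors fell in LPS kidneys, beside 22.2% of all tested genes, and 7 did not pass. The median was 0.21. The gene that fell was Eef1g (-0.36, adjusted p = 0.049), whose call ended under 17 of 21 alternatives. Eef1a1, which carries charged transfer RNA to the ribosome, had a change of 0.21 (adjusted p = 0.45). Of 4 genes that complete charging in mitochondria, Gatb and Gatc, subunits of the amidotransferase that makes mitochondrial glutaminyl-tRNA, fell by 0.95 and 0.52. The calls of Gatb and Gatc ended under 4 and 13 of 21 alternatives. The other subunit Qrsl1 and the formyltransferase Mtfmt had changes of 0.15 and -0.31 and did not pass. Of 7 synthetase-like and editing genes, 5 fell and 2 did not pass, with a median of -0.98. Sepsecs and Pstk, which convert seryl-tRNA to selenocysteinyl-tRNA, fell by 1.35 and 1.31 (adjusted p = 0.00013 and 0.0029). Tarsl2, an additional cytosolic threonine enzyme, averaged 3.86 CPM in LPS kidneys and 13.3 CPM in saline kidneys (-1.78, adjusted p = 0.0015), against the rise of Tars.

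**Figure D4:**
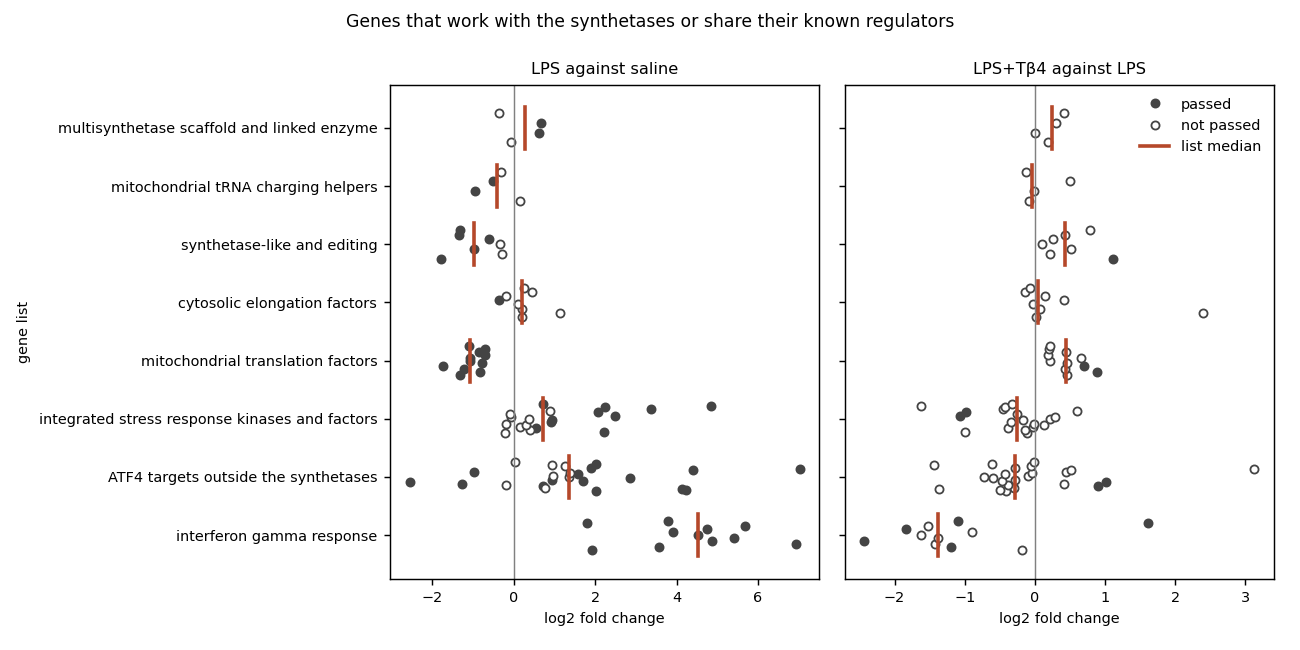
Log2 fold change (horizontal axis, edgeR) of the genes of 8 lists (vertical axis) in LPS against saline, left, and in LPS+Tβ4 against LPS, right. Filled points passed an adjusted p of 0.05, open points did not, and the red bar is the list median, which for mitochondrial translation factors is -1.08 on the left and 0.44 on the right.

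Of 19 kinases, phosphatase subunits and factors of the integrated stress response, 10 rose in LPS kidneys, beside 20.9% of all tested genes. The other 9 did not pass, 4 of them with a negative change, and the median of the 19 was 0.73. Atf4 averaged 316 CPM in LPS kidneys and 75.6 CPM in saline kidneys (2.06, adjusted p = 0.00023). Ppp1r15a, a phosphatase subunit that reverses the response, rose by 2.49, Ddit3, the transcription factor CHOP, by 2.23, and Eif2ak2, the kinase PKR, by 2.21. Eif2ak4, which encodes GCN2, averaged 25.9 CPM in LPS kidneys and 17.7 CPM in saline kidneys (0.55, adjusted p = 0.035), a call that ended under 7 of 20 alternatives. The ATF4 protein is induced largely through translation of its message, which RNA levels do not measure.

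Of 23 tested ATF4 targets outside the synthetases, 12 rose and 3 fell in LPS kidneys, with a median of 1.36. Over all tested genes 20.9% rose and 22.2% fell. Asns, which makes asparagine, averaged 23.2 CPM in LPS kidneys and 5.75 CPM in saline kidneys (2.01, adjusted p = 0.002). Chac1, a glutathione-degrading enzyme, Trib3, a pseudokinase, and Slc6a9, a glycine transporter, rose by 4.23, 4.12 and 1.58. Shmt2, the mitochondrial serine hydroxymethyltransferase, was among those that fell, at 33.4 CPM in LPS kidneys and 197 CPM in saline kidneys (-2.56, adjusted p = 0.00014). All 11 interferon γ response genes rose, with a median of 4.52, among them Tap1, the peptide transporter of antigen processing (4.74), Gbp2, a guanylate-binding protein (6.94), and Nlrc5, an activator of MHC class I genes (3.78).

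In LPS+Tβ4 against LPS, none of the calls in these lists held in every fit. Of 19 stress response genes 2 were lower, beside 2.33% of all tested genes: Atf4 (-0.98, adjusted p = 0.032) and Ppp1r15a (-1.07, adjusted p = 0.031). Atf4 averaged 160 CPM in LPS+Tβ4 kidneys and 316 CPM in LPS kidneys. Both calls ended under 11 of 21 alternatives, which include leaving out any single library other than LPS replicate 1. Of 23 ATF4 targets, 2 were higher, beside 4.5% of all tested genes: Psat1, of serine synthesis (0.90, adjusted p = 0.017), and Shmt2 (1.02, adjusted p = 0.036), whose calls ended under 5 and 10 of 21 alternatives. Most of the list went the other way, with a median of -0.28, 17 changes negative and 6 positive. Of 11 interferon γ response genes, 4 were lower and 1 higher, beside 2.33% and 4.5% of all tested genes. Their median change was -1.38, with 10 changes negative and 1 positive. Tap1 was lower (-1.83, adjusted p = 0.0095) and Ciita, the activator of MHC class II genes, higher (1.61, adjusted p = 0.022). Without LPS replicate 2 or LPS+Tβ4 replicate 2, 1 of the 11 was lower and 0 higher, and without LPS+Tβ4 replicate 1, 1 was lower and 1 higher. With only the 6 libraries compared, every one of these calls ended. In LPS+Tβ4 against saline the same lists gave 10 higher of 19, 11 higher and 2 lower of 23, and 11 higher of 11. Over all tested genes 12.3% were higher and 11.8% lower in that comparison.

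Some members share bases with a neighbour in the annotation, and whether counting used the strand is not given in the sources used here. Hars and Hars2 overlap head to head by 198 bases on opposite strands, and their changes in LPS against saline were 0.53 and -0.51. Mars1 overlaps Ddit3 by 68 bases on the opposite strand. Iars2 overlaps Rab3gap2 by 2034 bases, Farsb overlaps Sgpp2 by 2315 bases and Cars2 overlaps Naxd by 984 bases, each on opposite strands. Wars overlaps Wdr25, which averaged 0.824 FPKM, by 544 bases on the opposite strand. Aars shares 1326 transcript bases with Exosc6, which averaged 0.0288 FPKM. Iars has a processed pseudogene, Gm4849, with 96% identity over 1656 bases and 0.0493 FPKM.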

How the data were processed

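Kidney RNA of 9 mice (3 a group) was read from 1 deposited table, which gives for each gene a raw count and an FPKM value per library, both made by the authors. Per the submitters' processing notes, cutadapt 1.9, HISAT2 2.2.1, StringTie 2.1.6, DESeq2, edgeR and the build GRCm38 were named. No source used here names the counting program, its strand setting or the annotation. All value columns were mapped to samples. The labels name separate mice, and no batch is given.

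Counts were tested in edgeR 4.0.16 (R 4.3.3) with TMM scaling and a quasi-likelihood fit of all 9 libraries, 1 mean per group and no covariate, 2-sided. Genes whose FPKM averaged 0.5 or more were kept, and p-values were adjusted by the Benjamini-Hochberg method. The SE is the change divided by the square root of F. Libraries held 53 to 62 M counts. Errors of mean levels are the SD between mice, and errors of log2 fold changes are that SE. The chain was tested on simulated data. Pair ratios used FPKM and a 2-sided exact permutation test. Alternatives used DESeq2 1.42.0, limma 3.58.1 on log2(FPKM + 1) and log2(FPKM + 0.1), other filters and scalings, fewer libraries and a replicate block. Transcript matches used blastn 2.17.0 at 95% identity over at least 50 bases. Promoter sequences are from RefSeq, GRCm38.p6. Figures used matplotlib 3.10.9.

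The members and lists were chosen with earlier results of these data known. Values in every library were given for the 8 cytosolic and 8 mitochondrial genes with the smallest adjusted p in LPS against saline, for those passing in LPS+Tβ4 against LPS, and for Wars, Wars2, Gars and Kars. Of each list up to 4 genes with the smallest adjusted p were named, and always Eprs, Aimp1, Aimp2, Eef1e1, Atf4, Eif2ak4 and Asns. Other genes given in full (Vars, Pars2, Lars2, and Aars2 and Wars in LPS+Tβ4 against LPS) and other list genes were chosen after their values were seen. Some results withheld for evaluation are left out of the text and figures, though counts, medians and sums run over all 36 genes.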

Additional observations from a re-analysis of the deposited data

How the results depend on the processing

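No change of a synthetase gene past the threshold turned its direction under the alternatives run. In LPS against saline, cytosolic counts stayed within 1.5 times, with 12 to 13 higher and 1 lower when single libraries were left out. Mitochondrial genes higher numbered 1 in DESeq2, both limma fits and library totals only (0 to 1 with a library left out). Those lower numbered 7 in both limma fits, without a filter and with library totals only, 3 of the 4 left at a mean FPKM of at least 5, and 6 to 11 with a library left out. In LPS+Tβ4 against LPS, cytosolic genes higher (2) were 0 without a filter, with the 6 libraries compared and with a replicate block, and 0 to 3 with a library left out. Those lower (1) were 5 in DESeq2, 0 in both limma fits, with 6 libraries and with the replicate block, 2 without replicate 3 of both groups, and 0 to 4 with a library left out. Mitochondrial genes higher (2) were 1 in limma on log2(FPKM + 0.1), with filterByExpr, at a mean FPKM of 5 and with library totals only, 0 without a filter, with 6 libraries and with the replicate block, and 0 to 6 with a library left out. All genes called there by DESeq2 were 1370 higher and 1072 lower, and 5 were higher with the replicate block. In LPS+Tβ4 against saline, cytosolic genes higher (12) were 5 with the replicate block and 5 to 16 with a library left out. Mitochondrial genes lower (2) were 4 in DESeq2, 1 at a mean FPKM of 5, and 0 in both limma fits, without a filter, with library totals only, with the replicate block and without both replicates 3. They were 0 to 4 with a library left out. Same-numbered libraries did not pair, with correlations of their deviations between -0.662 and 0.331, so the replicate block is no paired design. Under it, no gene of the related lists kept a call in LPS+Tβ4 against LPS. Summed ratios in CPM in place of FPKM, Lars2 included, were 2.76 in LPS+Tβ4, 3.18 in LPS and 1.34 in saline kidneys, against 4.13, 5.04 and 2.05 in FPKM. The causes of these shifts were not tested. With 3 mice a group, changes near the threshold were not settled.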
